A study of Mus musculus with 4 samples.

Results

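The Zscan4 and Mir344 gene clusters of mouse chromosome 7 were examined for accessible sites in embryonic stem cells. All peaks on chromosome 7 of mm9 with a midpoint between positions 11000001 and 12000000 (the Zscan4 window) or between 68700001 and 69300000 (the Mir344 window) were taken from the peak lists of 4 ATAC-seq libraries, and peaks that overlapped between libraries were merged. This gave 34 regions of 50231 in the whole series, 25 in the Zscan4 window and 9 in the Mir344 window. Regions were taken by position alone, within windows that were set with earlier results of these data known.

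The cells were J1 mouse embryonic stem cells of 129SV origin, grown without feeders on gelatin in medium with serum and leukemia inhibitory factor. The DR+/+ libraries (n = 2) came from cells positive for MERVL and for Zscan4c, and the DR-/- libraries (n = 2) from cells negative for both. No other genotype or treatment is given for either population, and the labels do not say how MERVL and Zscan4c were read out in the cells. Zscan4c is both a member of the cluster and a mark by which the populations were defined, so the values at the Zscan4 window are not independent of how the cells were chosen. ATAC-seq reads out where Tn5, a transposase loaded with adapters, can reach the DNA of a nucleus, and a peak is a stretch where inserted fragments pile up above the local background. Because each library holds many cells, more cells with an open site and a more open site in each cell cannot be told apart.

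Zscan4 genes encode nuclear proteins with a SCAN domain and zinc fingers. In the mouse they are transcribed in a burst at the 2-cell stage of the embryo, when the zygotic genome is activated, and in a small, changing fraction of embryonic stem cells, in which Zscan4 has been linked to telomere lengthening. The miR-344 family is a group of microRNA hairpins clustered near imprinted genes, and the series names miR-344 together with the transcription factor DUX and the zinc finger protein ZMYM2 in a 2-cell-like state. MERVL, the other mark of the populations, is a family of endogenous retroviruses transcribed at the 2-cell stage.

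The RefSeq table of genes used here is of GRCm38.p6, another build than that of the peaks. It was used for names and gene order alone, no region below is tied to a single gene, and the edges of the windows were not checked against gene positions of mm9. Zscan4 genes number 9 there and follow each other in the order Zscan4a, Zscan4b, Zscan4c, Zscan4-ps1, Zscan4d, Zscan4e, Zscan4f, Zscan4-ps2 and Zscan4-ps3, of which Zscan4b, Zscan4c, Zscan4d and Zscan4f are listed as protein-coding and the other 5 as pseudogenes. Between the first and the last lie 32 further genes, of which 29 are pseudogenes and 0 are protein-coding. The cluster is bordered by Nlrp4b and Vmn1r71 on one side and by Vmn1r72 and Vmn1r73 on the other, the Vmn1r genes being vomeronasal receptors. The Mir344 family has 13 hairpins in a row, from Mir344d-1 to Mir344i, with 6 other genes between them and 0 protein-coding genes among those. Ndn, Magel2, Mkrn3 and Peg12, imprinted genes of the Prader-Willi syndrome region, come after Mir344i.

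How alike the copies are bears on these data, because a read of 50 bases from a stretch shared by several copies has no unique place. Of the 6 named Zscan4 genes, 4 have a promoter sequence in the RefSeq table (GRCm38.p6), covering 250 bases before to 50 bases after the gene start. Local alignment gave 95.3% identity for Zscan4b with Zscan4c (277 aligned columns) and 99.3% for Zscan4c with Zscan4f (277 columns), the lowest and the highest of the 6 pairs. The stretch of 87 bases around the TATAAAA element is shown for all 4, in the gene's own direction, since it holds the element they share and makes the likeness visible. The capitals mark TATAAAA. The positions are of GRCm38.p6. They were not converted to mm9 and are not compared with those of the peaks.
Zscan4b (chr7:10905055-10905141, minus strand): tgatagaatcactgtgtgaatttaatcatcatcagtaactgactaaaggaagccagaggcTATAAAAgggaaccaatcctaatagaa
Zscan4c (chr7:11005631-11005717, plus strand): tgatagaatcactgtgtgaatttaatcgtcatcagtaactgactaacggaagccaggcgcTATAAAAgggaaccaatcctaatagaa
Zscan4d (chr7:11166187-11166273, minus strand): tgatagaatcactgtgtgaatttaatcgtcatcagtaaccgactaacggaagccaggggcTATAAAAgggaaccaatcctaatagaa
Zscan4f (chr7:11397824-11397910, plus strand): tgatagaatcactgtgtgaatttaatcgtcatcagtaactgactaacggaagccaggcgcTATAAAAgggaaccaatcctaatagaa

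Within these 87 bases Zscan4c and Zscan4f did not differ at any position (0 bases). Zscan4d differed from each of them at 2 bases, and Zscan4b from each of the other members at 4 bases. The letters TATAAAA, on either strand, occurred in 4 of 4 Zscan4 promoters and in 5.48% of the 32851 promoters of the table. Of the 251 windows of 50 bases in each promoter, 70.9% of those of Zscan4f, 59.8% of Zscan4c, 31.9% of Zscan4b and 31.5% of Zscan4d occurred without a mismatch in the promoter of another of the 4. Over all promoters of the table, 9.82% of such windows occurred in the promoter of another gene. How reads with several possible places were treated is not given in the sources used here, so the copies of the Zscan4 family may share, lose or exchange reads.

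Most miR-344 hairpins share no stretch as long as a read with another hairpin. Hairpins are 60 to 95 bases long against 300 for the promoters, and the DNA around the hairpins was not compared. Only Mir344h-1 and Mir344h-2 shared all of their 50-base windows (11 of 11), Mir344d-2 and Mir344d-3 shared 1 of 31, and the other 9 hairpins shared 0. Their mature forms from the 3p arm carry 6 different seeds, bases 2 to 8, which pair with target RNAs, in 8 sequences. These are shown 5′ to 3′ with the seed in capitals, because they show which hairpins of the cluster give products with the same seed.
miR-344-3p (Mir344 and Mir344-2): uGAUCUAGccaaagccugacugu
miR-344c-3p (Mir344c): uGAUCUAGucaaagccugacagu
miR-344d-3p (Mir344d-1, Mir344d-2 and Mir344d-3): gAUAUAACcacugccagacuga
miR-344e-3p (Mir344e): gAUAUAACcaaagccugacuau
miR-344h-3p (Mir344h-1 and Mir344h-2): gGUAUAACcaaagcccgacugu
miR-344b-3p (Mir344b): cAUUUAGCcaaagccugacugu
miR-344f-3p (Mir344f): cUCUAGCCaggaccugacuac
miR-344g-3p (Mir344g): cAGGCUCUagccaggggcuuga

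The seed GAUCUAG is thus shared by miR-344-3p and miR-344c-3p, and AUAUAAC by miR-344d-3p and miR-344e-3p. On the 5p arm 10 mature names carry 4 seeds, and 6 of them share GUCAGGC. Among all 1679 mature names of the table GAUCUAG occurred in 2 and GUCAGGC in 6, all of them of the family, whereas AUAUAAC occurred in 3 and AGGCUCU, the seed of miR-344g-3p, in 2, in each case 1 more than in the family. All 13 hairpins lie on the minus strand. The sequences are RefSeq's for GRCm38.p6, and no small RNA was measured in these libraries.

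Genome-wide, DR+/+ replicate 1 had 40933 peaks and replicate 2 had 26866, while the DR-/- lists were shorter, with 21630 and 24432. The mean of the DR+/+ lists was 1.47 times that of the DR-/- lists. Read totals are not given in the lists, but the deposited fold enrichment and p-value of each peak together give its summit pileup, a whole number of reads, and the local background expected there. The median peak had 15 or 16 reads at its summit, and the weakest peak 7 reads in DR-/- replicate 1 and 8 in the other 3 lists. A site without a peak is therefore one that did not pass the caller's threshold at this depth, not one shown to be closed.

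In the Zscan4 window, far more peaks were called in the DR+/+ than in the DR-/- libraries. DR+/+ replicate 1 had 19 peaks and replicate 2 had 14, whereas DR-/- replicate 1 had 2 and replicate 2 had 4. The means were 16.5 ± 3.54 and 3.0 ± 1.41 peaks (SD, n = 2 each), and the libraries of the populations did not overlap. The peaks covered 5040 and 3220 bp in the DR+/+ libraries and 297 and 816 bp in the DR-/- libraries. The difference of 13.5 peaks exceeded the spread between replicates, and so did that of 3573.5 bp. An exact two-sided permutation test over the libraries gave p = 0.33 for both, the smallest p that 2 against 2 libraries allow. Any 2 against 2 libraries that do not overlap give this p, so it measures neither the spread between the libraries nor the size of the difference. Nothing in the labels tells whether the replicates were separate cultures, so the spread between these libraries may be technical.

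In the Mir344 window, peaks were called in the DR+/+ libraries and in neither DR-/- library. DR+/+ replicates 1 and 2 had 10 and 6 peaks and DR-/- replicates 1 and 2 had 0 and 0. The DR+/+ peaks covered 1917 and 1278 bp. The means were 8.0 ± 2.83 and 0.0 ± 0.0 peaks (SD, n = 2 each; exact two-sided permutation test, p = 0.33). Relative to the length of the list, the window held 0.244 and 0.223 of every 1000 peaks in DR+/+ replicates 1 and 2. For the Zscan4 window the same share was 0.464 and 0.521 in the DR+/+ libraries and 0.092 and 0.164 in the DR-/- libraries. In the Zscan4 window the order of the populations thus stayed the same when each list was scaled to its own length. In the Mir344 window scaling could not change it, since the DR-/- lists held 0 peaks there. When all lists were cut to the length of the shortest, 21630 peaks, by strength, the Zscan4 window held 8 and 9 peaks in DR+/+ replicates 1 and 2 against 2 and 3 in DR-/-, and the Mir344 window 3 and 3 against 0 and 0.

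**Figure D1:**
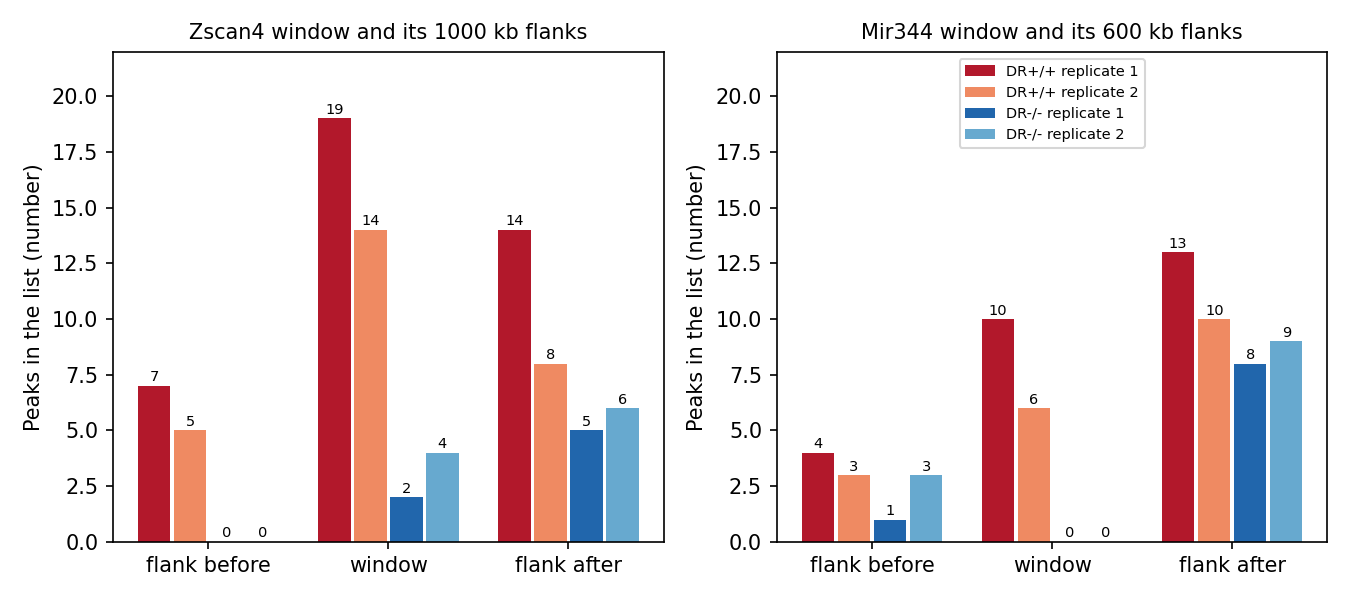
Number of peaks in each library (bars, number above each) in the Zscan4 window (left) and the Mir344 window (right) and in the windows of the same length directly before and after. Both DR+/+ libraries had more peaks than both DR-/- libraries in the Zscan4 window (19 and 14 against 2 and 4), in the Mir344 window (10 and 6 against 0 and 0), in both Zscan4 flanks and in the flank after the Mir344 window (13 and 10 against 8 and 9).

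The flanking windows show how far the windows stand apart from their surroundings. Since the edges were not checked against mm9 gene positions, whether a cluster lies wholly within its window is not known. In the 1000 kb before the Zscan4 window DR+/+ replicates 1 and 2 had 7 and 5 peaks and both DR-/- libraries had 0, and in the 1000 kb after it they had 14 and 8 against 5 and 6 peaks. The lack of DR-/- peaks was therefore also seen before the window. The Zscan4 window exceeded the mean of its flanks by 8.5 and 7.5 peaks in the DR+/+ libraries, and by -0.5 and 1.0 peaks in the DR-/- libraries. The difference between the populations in this excess was 7.75 peaks (exact two-sided permutation test, p = 0.33).

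Around the Mir344 window the populations were closer to each other. In the 600 kb before it the DR+/+ libraries had 4 and 3 peaks and the DR-/- libraries 1 and 3, and in the 600 kb after it 13 and 10 against 8 and 9. The Mir344 window differed from the mean of its flanks by 1.5 and -0.5 peaks in the DR+/+ libraries, so there it was about as rich in peaks as its surroundings. In the DR-/- libraries it lay below them, by -4.5 and -6.0 peaks. The difference between the populations was 5.75 peaks (exact two-sided permutation test, p = 0.33). Among the peaks above the median strength of each list, the excess over the flanks differed by 0.5 peaks in each window (exact two-sided permutation test, p = 0.67 for Zscan4 and p = 1 for Mir344), so there was little left of either contrast with the flanks among strong peaks.

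Merged across libraries, the 25 regions of the Zscan4 window comprised 5 with a peak in both DR+/+ lists but in no DR-/- list, termed DR+/+-specific, and 2 that were common to all 4 libraries. A further 17 were called in 1 DR+/+ library alone and 1 in DR-/- replicate 2 alone, and 0 were DR-/--specific. DR+/+-specific regions made up 20.0% of the window, 9.08% of all regions of the genome and 7.94% of those of chromosome 7. In the flanks of the Zscan4 window 3 of 9 and 3 of 13 regions were DR+/+-specific, shares as high as in the window itself. Counting also those with a peak in 1 DR+/+ library, a class formed after the data were seen, 22 of 25 regions (88.0%) had a peak in DR+/+ alone, against 43.1% of all regions. In the flanks this applied to 9 of 9 and 9 of 13 regions.

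The 9 regions of the Mir344 window were 5 DR+/+-specific ones (55.6%) and 4 called in DR+/+ replicate 1 alone. The genome-wide background of DR+/+-specific regions is the same 9.08%, and the flanks held 0 of 2 and 1 of 17. Regions common to all 4 libraries, 24.7% of all regions, numbered 0 in this window, 1 in the flank before it and 5 in the flank after it. DR-/--specific regions, 1.38% of all, numbered 0 in the window and in both flanks. Presence in 2 against 2 libraries was not tested per region, since an exact permutation test could not go below p = 0.33. All 5 regions of the Mir344 window that were called in DR+/+ replicate 2 were also called in replicate 1, compared with 82.0% over all regions of that library. In the Zscan4 window 7 of the 12 regions called in DR+/+ replicate 2 (58.3%) were also called in replicate 1. In the other direction, 5 of the 9 Mir344 regions of replicate 1 (55.6%) were also called in replicate 2. For the Zscan4 window it was 7 of 19 (36.8%), and over all regions of replicate 1 it was 52.8%.

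The 2 common regions of the Zscan4 window lay at its start, and both were broader in the DR+/+ libraries. At chr7:11080445-11080944 the peaks were 459 and 344 bp wide in DR+/+ replicates 1 and 2, and 190 and 247 bp in DR-/- replicates 1 and 2, with 27, 28, 18 and 23 reads at the summit. The DR+/+ peaks were the wider ones and the groups did not overlap. Among the common regions of the genome, these widths stood at percentiles 79.2 and 71.1 in DR+/+ and 35.7 and 50.3 in DR-/-. Peaks were also wider in the whole DR+/+ lists, with medians of 188 and 189 bp against 173 and 176 bp. How many other common regions were wider in both DR+/+ libraries is not given here. The summits lay at positions 11080772 and 11080819 in DR+/+ and at 11080778 and 11080800 in DR-/-, within 47 bp of each other. Ranked by q-value among the 12412 common regions of the genome, this region stood at percentiles 77.4 and 89.8 in the DR+/+ libraries and 68.9 and 82.5 in the DR-/- libraries. These ranks overlap between the populations.

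The other common region, chr7:11056731-11057944, was 1214 bp long when merged. Its peaks covered 1007 and 1015 bp in the DR+/+ libraries, as a single peak in replicate 1 and as 3 peaks in replicate 2. In DR-/- replicate 1 a single peak covered 107 bp, and in replicate 2 a pair of peaks covered 466 bp. Among the common regions of the genome these widths stood at percentiles 98.6 and 99.3 in DR+/+ and at 3.89 and 91.6 in DR-/-, so the DR-/- libraries differed widely from each other. The strongest of the summits had 25 and 18 reads in DR+/+ and 14 and 12 in DR-/-. Beyond this pair of regions, up to the end of the window, a single DR-/- peak was called.

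**Figure D2:**
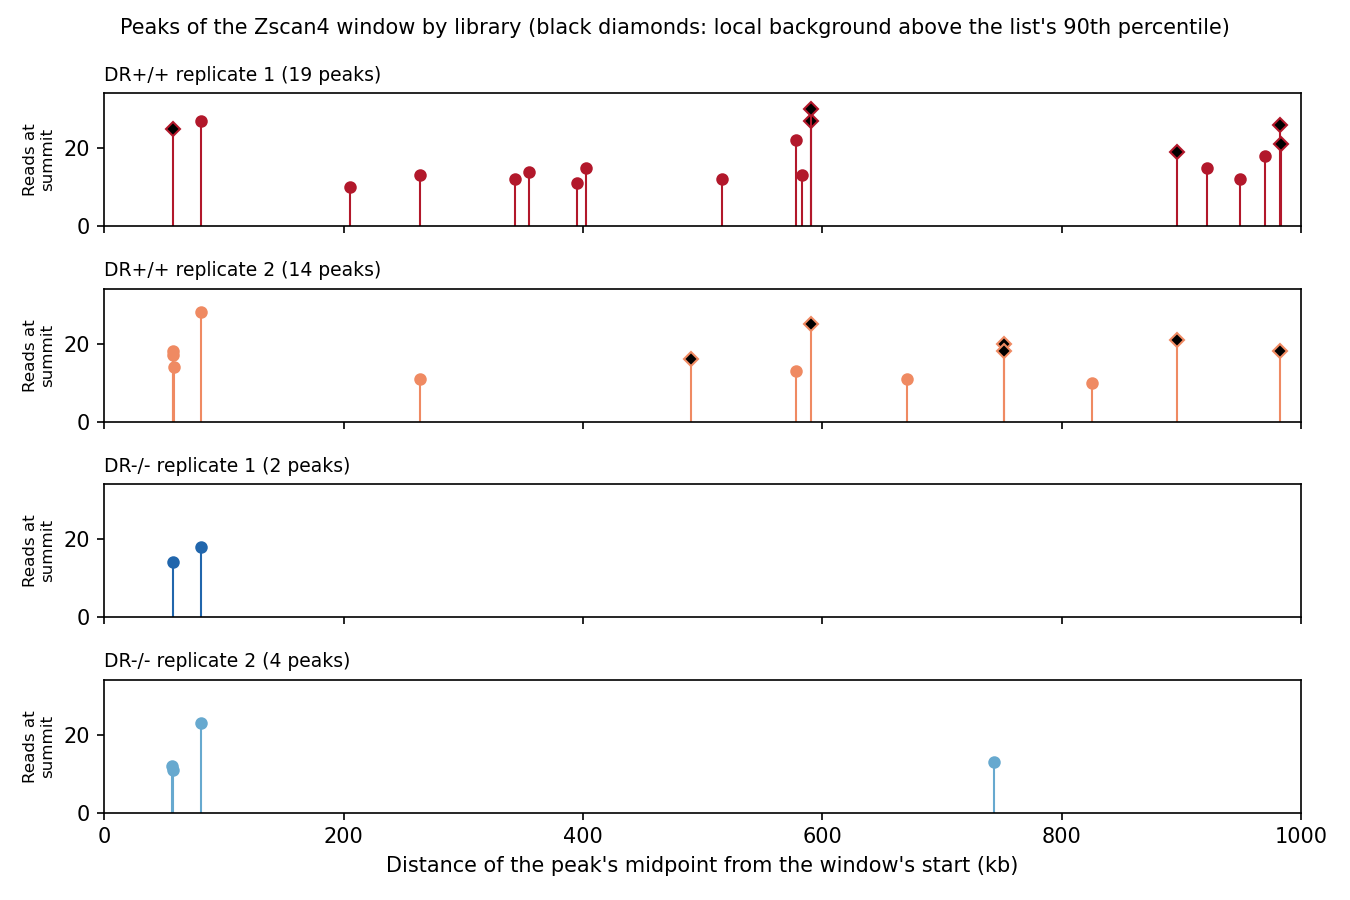
Reads at the summit (vertical axis) of each peak in the Zscan4 window, by distance of the peak's midpoint from the window's start in kb, 1 panel per library. All libraries have peaks near 57.3 and 80.7 kb, and beyond them the DR-/- libraries have 1 peak; black diamonds mark peaks with a local background above the 90th percentile of their list, which in the DR+/+ libraries lie at 5 places from 490.4 to 983.0 kb and, in replicate 1, also at the common region near 57.3 kb.

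The strongest DR+/+-specific region of the Zscan4 window by rank was chr7:11590567-11591287, 721 bp long. Its peak was 721 bp wide in DR+/+ replicate 1 and 536 bp in replicate 2, with 30 and 25 reads at summits 57 bp apart. The local background was 7.1 and 5.68 reads, at percentiles 98.9 and 98.1 of the backgrounds in the lists, so that the fold enrichment came to no more than 3.83 and 3.89 (all fold values are the authors' own, each for 1 library). A narrow peak at chr7:11590342-11590474, with 27 reads over a background of 6.8, lay just before it in replicate 1. No peak was called here in either DR-/- library.

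The next DR+/+-specific region, chr7:11577761-11577941, had summits only 9 bp apart, with 22 reads in replicate 1 and 13 in replicate 2. Its background of 3.1 and 2.25 reads was lower and its enrichment higher, at 5.61-fold and 4.3-fold. At chr7:11982760-11982965 the peaks were 129 and 119 bp wide with 26 and 18 reads, and they shared 42 bp. A peak of 277 bp with 21 reads followed at chr7:11983034-11983310 in replicate 1 alone. The region chr7:11896072-11896373 had peaks of 281 and 115 bp with 19 and 21 reads, which shared 94 bp. The weakest of the 5, chr7:11263637-11263853, had 13 and 11 reads and enrichments of 4.11-fold and 4.06-fold, and its peaks of 194 and 217 bp shared 194 bp. In these 5 regions the summits of the DR+/+ libraries lay between 9 and 57 bp apart.

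Several peaks of the Zscan4 window sat on a raised local background, a feature picked out after the values were seen. Of the peaks outside the common regions, 11 in the DR+/+ libraries had a background above the 90th percentile of their list, which was 3.54 and 3.48 reads in replicates 1 and 2. They belonged to 8 regions at 5 places. The place near 590.8 kb from the window's start had 3 such peaks and that near 983.0 kb also 3. The place near 896.2 kb had 2, 1 in each DR+/+ library. The places near 490.4 kb (chr7:11490370-11490508, 1 peak with 16 reads) and 751.7 kb (chr7:11751567-11751705 and chr7:11751785-11751928, with 20 and 18 reads) were called in replicate 2 alone. From one place to the next the distances were 99.8, 160.3, 144.1 and 86.4 kb.

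These 11 peaks had between 16 and 30 reads at the summit (median 21.0) over a background of 4.12 to 7.1 reads, and fold enrichments of 3.22 to 4.1. The other 16 DR+/+ peaks outside the common regions had 10 to 22 reads (median 12.5) over 1.85 to 3.1 reads, with enrichments of 3.56 to 5.61. The raised places held more reads but not a higher enrichment. Both partly follow from how they were picked, since a high background raises the reads needed for a call and lowers the enrichment. In all, 6 of 19 and 6 of 14 peaks of the window exceeded the 90th percentile in DR+/+ replicates 1 and 2, where 10% is the share in the whole list by construction. In the flanks the numbers were 1 of 7 and 3 of 5 before the window and 5 of 14 and 3 of 8 after it, so a raised background was not limited to the window. Of the 2 and 4 DR-/- peaks in the window, 0 and 0 exceeded it. Whether reads shared between copies of the family contributed to this background was not tested.

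The remaining regions of the Zscan4 window were seen in 1 library each. The 3 strongest by rank were chr7:11969919-11970101 (183 bp, 18 reads, 5.17-fold), the narrow peak at chr7:11590342-11590474 described above, and chr7:11921502-11921629 (128 bp, 15 reads, 5.12-fold), all in DR+/+ replicate 1. The others of DR+/+ replicate 1 began at 11204951 with 10 reads, and a peak of 362 bp with 15 reads at chr7:11402096-11402457 was the widest of them. The single DR-/- peak beyond the common regions, named here because it was the only one, was at chr7:11743573-11743675 in replicate 2. It was 103 bp wide, the shortest width in that list, with 13 reads and a 5.66-fold enrichment over the lowest background of the list, 1.47 reads. It did not overlap any DR+/+ peak.

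The strongest region of the Mir344 window was chr7:69084848-69085211. Its peaks were 364 and 249 bp wide in DR+/+ replicates 1 and 2, both had 23 reads at the summit, and the summits lay 3 bp apart. The enrichment was 7.44-fold and 7.17-fold over backgrounds of 2.22 and 2.35 reads. By q-value it stood at percentiles 88.2 and 89.6 of its lists, so it was a strong site in both libraries, while neither DR-/- list had a peak there. It was the only region of the window among the stronger 50% of the list of DR+/+ replicate 2.

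The other 4 DR+/+-specific regions were weaker. At chr7:68884134-68884443 the peaks of 127 and 241 bp had 19 and 17 reads and shared 58 bp, over the highest backgrounds of the window, 3.49 and 3.42 reads. At chr7:68861705-68861867 the peaks of 132 and 163 bp had 17 and 12 reads, with summits 16 bp apart. The region chr7:68714828-68715588 was the longest, at 761 bp, and consisted of a pair of peaks in each DR+/+ library, covering 602 and 510 bp with at most 13 reads at a summit. At chr7:68982246-68982426 the peaks of 181 and 115 bp had 14 and 11 reads. The last of these was as narrow as the shortest peak of its list, 115 bp.

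**Figure D3:**
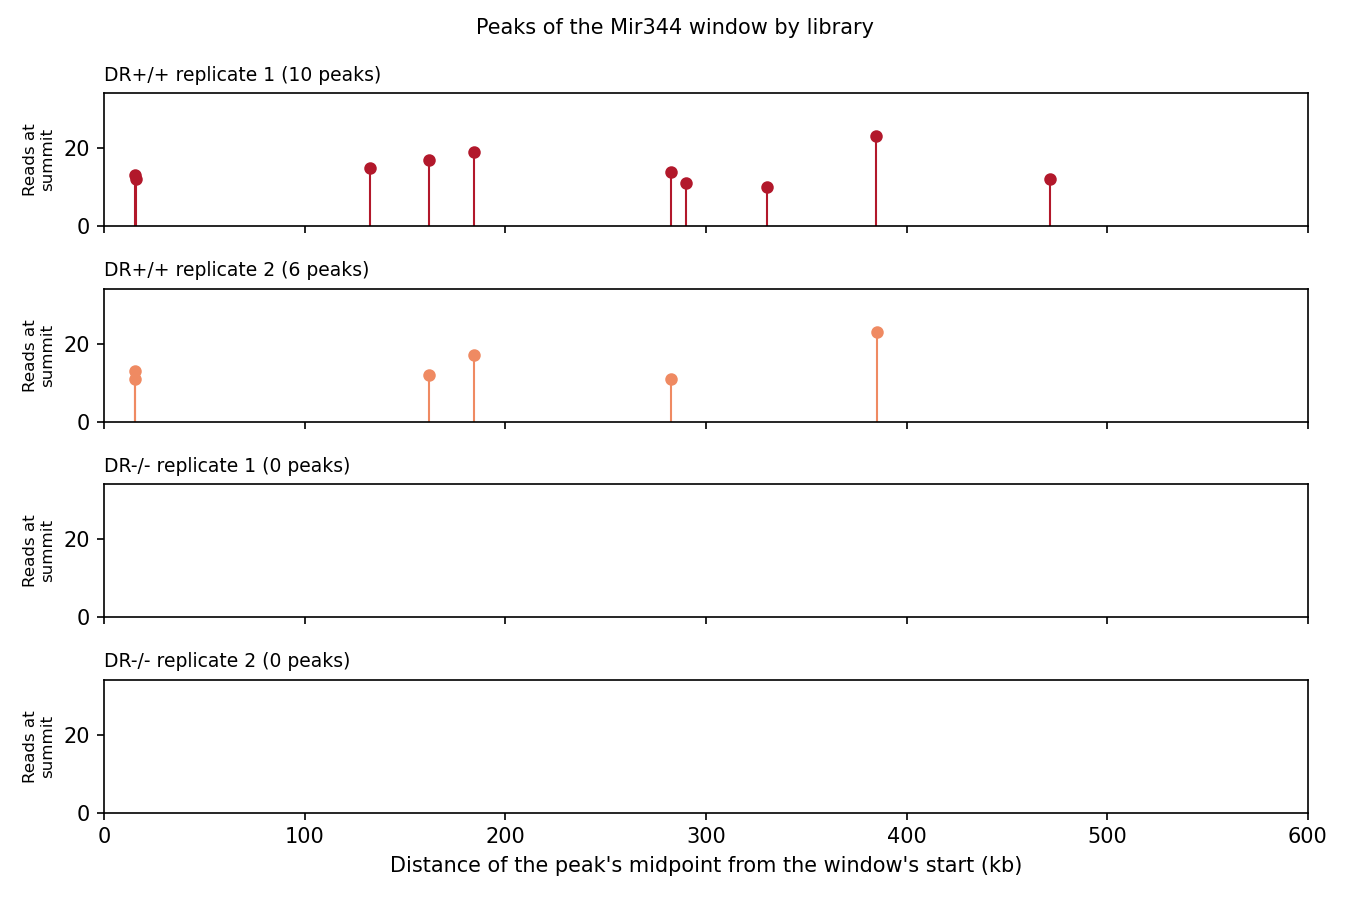
Reads at the summit (vertical axis) of each peak in the Mir344 window, by distance of the peak's midpoint from the window's start in kb, 1 panel per library. DR+/+ replicates 1 and 2 have 10 and 6 peaks, the highest with 23 reads near 385.0 kb in both, and the panels of the DR-/- libraries are empty.

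The 4 regions called in DR+/+ replicate 1 alone had 10 to 15 reads. The 3 strongest were chr7:68832159-68832331 (173 bp, 15 reads), chr7:69171755-69171864 (110 bp, 12 reads) and chr7:68989980-68990099 (120 bp, 11 reads), and the fourth was chr7:69030371-69030478 (108 bp, 10 reads). Over the whole window, the 16 DR+/+ peaks had a median of 13.0 reads over backgrounds of 1.81 to 3.49 reads. None of the 16 exceeded the 90th percentile of background of its list (0 peaks), and 0 did so in either flank.

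**Figure D4:**
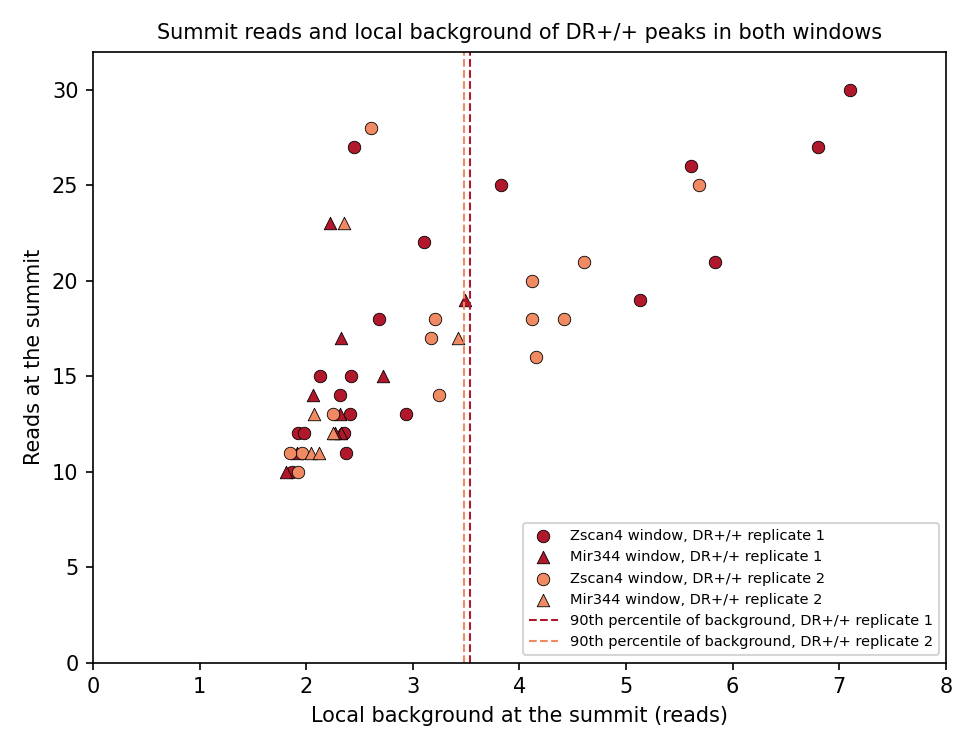
Reads at the summit against local background (reads) for each DR+/+ peak of the Zscan4 window (circles) and the Mir344 window (triangles), coloured by replicate; dashed lines mark the 90th percentile of background in each list, 3.54 and 3.48 reads. Peaks of the Mir344 window lie at or below 3.49 reads of background and below the line of their own list, while 12 peaks of the Zscan4 window, 6 in each replicate, lie above it.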

How the data were processed

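The authors deposited 1 peak list per library, in narrowPeak layout. The submitters' processing notes name the mm9 build and, with no roles, SAMtools 0.1.19, Bowtie2 2.3.0 and FastQC 0.10.1. Not given in the sources used here are the peak caller, any read shift, and how duplicates or reads with several places were handled. The deposited values per peak are a score, a fold enrichment (ratio) and the −log10 of a p-value and of a q-value (lowest 1.31), each valid within its library, plus start, end and summit.

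Python 3.11.15, NumPy 2.4.6, pandas 2.3.3, SciPy 1.17.1 and Matplotlib 3.10.9 were used. Peaks overlapping by at least 1 bp were merged, and regions were assigned by midpoint. Fold enrichment was read as (pileup + 1)/(background + 1) and p as a Poisson upper tail, which returned a whole-number pileup within 0.001 in −log10 p for 100.0% of peaks. Counts, covered bases and excess over 2 flanks were compared by exact permutation over libraries. Merging and recovery were tested on simulated data. Every population-specific region was named, with up to 5 common and the 3 strongest other regions per window, and others as the text says. Windows, members and rules were chosen with earlier results of these data known. Alternatives were stronger or equal-length lists, shifted edges, other merging, 4 flanks, left-out libraries and a replicate block. No sample was left out.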

Additional observations from a re-analysis of the deposited data

How the results depend on the processing

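All 56 alternatives of the 6 differences between populations (peaks, covered bases and excess over flanks in each window) had the higher mean in DR+/+. Many of these outcomes were fixed in advance. Both DR+/+ libraries exceeded both DR-/- libraries in each of the 6 differences, so leaving out a library could not reverse any of them. With the Mir344 edges as set, the DR-/- lists held 0 peaks, so peaks and covered bases could not reverse there. Leaving out each library gave 11 to 16 peaks and 2663.5 to 4483.5 bp in the Zscan4 window, 6 to 10 peaks and 1278 to 1917 bp in the Mir344 window, and an excess over flanks of 7.0 to 8.5 and 4.75 to 6.75 peaks. With the stronger 50% of each list the differences fell to 3.5 and 2.0 peaks, and with lists of equal length to 6.0 and 3.0 peaks. In covered bases they were 1740.5 and 436 bp with the stronger 50%, 2224 and 677 bp with equal lists, and 2188.5 and 1041.5 bp with edges 100 kb inward. The excess over the flanks was 0.5 peaks in each window with the stronger 50%, where the libraries of the populations overlapped (exact permutation p = 0.67 and 1), and 3.5 and 3.0 peaks with equal lists. With edges 100 kb inward the excess of the Zscan4 window was 3.25 peaks. DR+/+-specific regions numbered 1 in each window with the stronger 50%, 3 (Zscan4) and 2 (Mir344) with equal lists, and 22 and 9 when 1 DR+/+ library sufficed, an alternative chosen after seeing the data. Without DR+/+ replicate 1 they numbered 11 in the Zscan4 window, and without DR+/+ replicate 2 they numbered 17 and 10. With 1 DR+/+ library left, a peak in that library sufficed, so these counts follow a looser rule than the main one. Over all left-out libraries, and so over unlike rules, they ranged from 5 to 17 and from 5 to 10. The shares over all regions with the stronger 50%, equal lists or a library left out are not given here. DR-/--specific regions of the Zscan4 window ranged from 0 to 1, the 1 arising without DR-/- replicate 1, where a peak in replicate 2 sufficed. Common regions of the Zscan4 window numbered 1 with the stronger 50%, 1 with summits within 150 bp grouped and 0 with edges 100 kb inward, and of the Mir344 window 1 with edges 100 kb outward. With a replicate block the differences were the same by construction, 13.5 and 8.0 peaks, 3573.5 and 1597.5 bp, and 7.75 and 5.75 peaks of excess. The exact sign-flip p was 0.5 for each, the smallest two-sided p that 2 pairs of libraries allow. Same-numbered libraries did not deviate together over 2658 bins of 1 Mb (correlation -0.026, across bins). This cannot tell whether same-numbered libraries were prepared together. With 10 to 30 reads at the summits of the DR+/+ regions and a weakest called peak of 7 or 8 reads, sites of lower accessibility were not detectable at this depth.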
